A study of Mus musculus with 26 samples.

Results

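RNA-seq counts of 9 genes that switch the rod light response off and couple it to calcium were followed in 26 libraries from rd10 mice, out of 37991 genes counted. The genes were taken by name as the guanylate cyclases Gucy2e and Gucy2f, their activators Guca1a and Guca1b, recoverin (Rcvrn), the receptor kinase Grk1, Rgs9, phosducin (Pdc) and the rod exchanger Slc24a1. The rule used no measured value, but the genes were chosen with earlier results of these data known. All 9 were found under 1 Ensembl gene each. Every mouse carried the rd10 mutation of Pde6b, a subunit of the rod phosphodiesterase, and was injected intraperitoneally from PN9 until PN24. Whole retina of B6.CXB1-Pde6brd10/J mice was measured after 4 drugs. These were DZNep and UNC1999, inhibitors of the H3K27 methyltransferase EZH2 (2 treated against 4 control libraries, and 3 against 3), UNC0642, an inhibitor of the H3K9 methyltransferases of the GLP complex (2 against 2), and Romidepsin, a histone deacetylase inhibitor (3 against 3). GSK2879552 (GSK), an LSD1 inhibitor, was measured in rods sorted by the green fluorescence of a Nrl-EGFP transgene from rd10 mice crossed to that line (2 against 2). Each treatment had control libraries of its own, called saline, and UNC1999 was dissolved in a mixture that also contained DMSO. Wild-type retina was not analysed here.

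When light is absorbed, transducin turns on the phosphodiesterase, cyclic GMP falls, the cation channel closes and calcium in the outer segment drops. Recovery then needs GRK1 and arrestin to stop the receptor, transducin to be switched off by the complex of RGS9 with GNB5 and RGS9BP, and cyclic GMP to be made again by the cyclases. Calcium sets the pace, because recoverin holds GRK1 back and the guanylate cyclase activating proteins GCAP1 (Guca1a) and GCAP2 (Guca1b) hold the cyclases back while calcium is high, and the exchanger NCKX1 (Slc24a1) extrudes calcium.

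The genes are spread over 6 chromosomes (NCBIM37, GENCODE M1 positions). The cyclase genes are Gucy2e (chr11:69031619-69050538, minus strand) and Gucy2f (chrX:138515703-138631474, minus strand). The activator genes Guca1b (chr17:47522342-47529916, plus strand) and Guca1a (chr17:47531509-47537533, minus strand) are neighbours that point towards each other, 1592 bases apart. Rcvrn (chr11:67508828-67516835, plus strand) overlaps Glp2r on the opposite strand without shared exonic bases, and the strand setting of the counting was not stated. Grk1 lies at chr8:13405081-13421945 (plus strand) and Rgs9 at chr11:109086669-109159443 (minus strand). Pdc lies at chr1:152166547-152181035 (plus strand) and Slc24a1 at chr9:64770668-64799414 (minus strand). The counts cover the exons of each gene, whose merged length differs more than 10-fold among the members. Guca1a (871 bases), Rcvrn (1040), Pdc (1246) and Guca1b (2472) are short, whereas Slc24a1 (5213), Rgs9 (6390), Grk1 (7425), Gucy2f (8122) and Gucy2e (9197) are long.

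Since the levels of the 9 genes were correlated across retinas, their promoters were searched for 2 short motifs of photoreceptor regulators. A window of 250 bases before the transcription start was held in RefSeq (GRCm38.p6) for 7 of the 9 members, the exceptions being Guca1b and Rcvrn. The core TAATCC (or GGATTA on the other strand), which the homeodomain factors CRX and OTX2 recognize, was found in 3 of these 7 windows, against 6.22% of 32619 mouse windows. It occurred 1 time in Guca1a and in Gucy2e and 2 times in Gucy2f, and 2 or more occurrences were found in 0.297% of all windows. Their leftmost bases lie at -57 in Guca1a, at -42 in Gucy2e and at -84 and -59 in Gucy2f, counted from the start. TGCTGA (or TCAGCA), a part of the sites of MAF factors such as NRL, was found in the window of Rgs9 alone, against 16.1% of all windows. A match of these letters is not a bound site. The 3 windows with the homeodomain core are shown 5′ to 3′ on the strand of the gene, with the core in capitals. They were taken from chr17:47400607-47400856 (minus strand), chr11:69237023-69237272 (minus strand) and chrX:142196937-142197186 (minus strand) of GRCm38.p6.
Guca1a: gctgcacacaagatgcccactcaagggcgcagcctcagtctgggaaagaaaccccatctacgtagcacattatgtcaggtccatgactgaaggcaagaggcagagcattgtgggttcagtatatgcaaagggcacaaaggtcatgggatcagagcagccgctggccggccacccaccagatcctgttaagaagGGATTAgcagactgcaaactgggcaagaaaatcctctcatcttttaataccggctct
Gucy2e: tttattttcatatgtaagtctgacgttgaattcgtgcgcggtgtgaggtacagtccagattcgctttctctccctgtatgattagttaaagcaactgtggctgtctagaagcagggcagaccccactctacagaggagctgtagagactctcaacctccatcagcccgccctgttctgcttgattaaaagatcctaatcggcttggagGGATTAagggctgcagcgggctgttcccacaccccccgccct
Gucy2f: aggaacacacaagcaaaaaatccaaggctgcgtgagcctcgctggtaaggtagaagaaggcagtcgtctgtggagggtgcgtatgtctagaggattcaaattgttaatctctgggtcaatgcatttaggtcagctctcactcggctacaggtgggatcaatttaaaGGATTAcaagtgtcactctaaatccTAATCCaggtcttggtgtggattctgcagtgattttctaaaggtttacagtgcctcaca

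Between 13732959 and 36354094 reads were counted in a retina library and between 7289460 and 19864491 in a library of sorted rods, and no member had fewer than 419 counts in any library. The UNC0642 controls held the least of these transcripts, 1990 and 2097 CPM (counts per 1000000 reads, scaled by TMM factors) summed over the 9 genes, against 3057 to 6137 in the other 10 control retinas. In the Romidepsin experiment, control replicate 3 and treated replicate 2 held less of long transcripts than the other libraries of their groups. Against the mean of those, the median of 4737 genes with over 5000 exonic bases minus that of 5168 genes with under 2500 was -0.31 in control replicate 3 and -0.59 in treated replicate 2 on the log2 scale. It was 0.13 to 0.31 in the other 4 libraries of the experiment, and between -0.20 and 0.20 in those of the other experiments. In sorted rods, the rod genes summed to 49310 to 78930 CPM, the markers of retinal pigment epithelium to at most 62.3 CPM, those of microglia to at most 39.9 CPM and those of lens to at most 0.416 CPM, with 5 of 8 lens genes at 0. Those of cones summed to 1544 to 4279 CPM, those of bipolar cells to 543 to 831 CPM and those of Müller glia to 251 to 438 CPM.

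In the 12 control retinas, the median levels per kilobase of exon of the calcium sensors and phosducin were above those of the enzymes. They were 564 CPM per kb for Rcvrn, 531 for Pdc, 244 for Guca1a, 138 for Guca1b, 111 for Grk1, 102 for Slc24a1, 47.0 for Rgs9, 37.5 for Gucy2e and 7.16 for Gucy2f. Ranges over the 12 libraries overlapped between neighbours in this order, except for the last pair, for example 297 to 799 for Rcvrn and 221 to 1016 for Pdc. Gucy2f, with 3.33 to 11.8, lay under the lowest value of Gucy2e, 24, in every library.

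**Figure D1:**
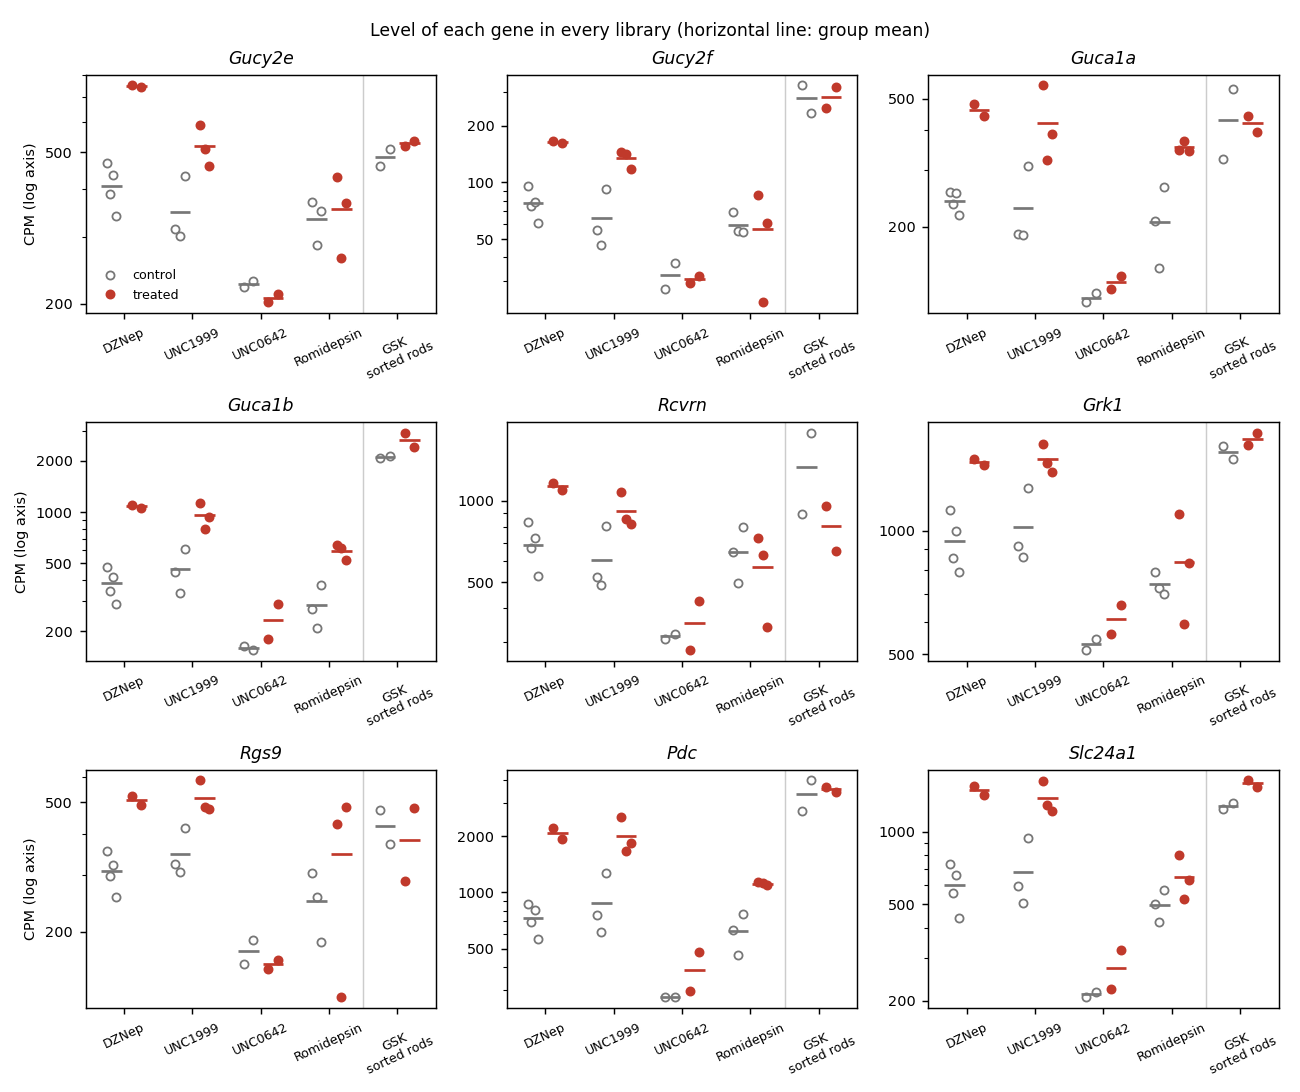
Level of each of the 9 genes in every library, in CPM after TMM scaling within the experiment, on a logarithmic axis (open grey circles, controls; filled red circles, treated; lines, group means). Both DZNep and all 3 UNC1999 libraries sit above all of their controls in every panel, and the UNC0642 libraries sit low.

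All 9 genes rose with DZNep, by 1.56-fold (Grk1) to 2.84-fold (Guca1b), with a median log2 fold change of 0.94. All 9 passed an adjusted p of 0.05 in edgeR's quasi-likelihood test, where 12.9% of the 16477 genes tested passed as higher, and both treated libraries were above all 4 controls for all 9, against 24.4% of genes. Of them, 4 (Guca1b, Pdc, Slc24a1 and Gucy2f) also exceeded a log2 fold change of 1, which 1.02% of genes did as higher. With UNC1999, all 3 treated libraries were above all 3 controls for 9 of 9 genes, against 13.9% of 15775 genes, with log2 fold changes between 0.55 (Grk1) and 1.19 (Pdc) and 0.88 as their median. None passed in the quasi-likelihood test (adjusted p from 0.0582 to 0.122, with 0.501% of all genes passing as higher), while all 9 had an unadjusted p below 0.05, as 11.8% of genes did as higher. The likelihood ratio test called 9 and DESeq2 called 8 of them, where these tests called 5.32% and 5.08% of all genes as higher. Without control replicate 3, the control highest in all 9 genes, all 9 passed, as did 8.31% of genes as higher. Without any other single library none passed. In whole retina, a larger share of rods and more RNA per rod cannot be told apart. Other cell types differed as well. With DZNep, 9.72% of all genes passed as lower. The summed cone markers were at 1986 to 2122 CPM against 2422 to 2753 in the controls, with 3 of 9 passing as lower. Those of microglia were at 120 to 132 against 145 to 301 CPM, with 1 of 8 lower, near the share of all genes. Those of Müller glia were at 6253 to 7028 against 8967 to 9211 CPM (6 of 8 lower). Those of bipolar cells were at 1830 to 1915 against 2130 to 2363 CPM (7 of 8 lower). Of the 8 pigment epithelium markers 5 were higher, for example Rgr (mean 18.1 CPM in the controls and 73.4 after DZNep) and Rpe65 (6.18 and 24.1), and Rlbp1, which Müller glia express too, was lower (670 and 485). The sum of the 8 was not raised, at 676 to 752 CPM after DZNep against 685 to 851 CPM in the controls. Lens markers summed to 3.32 CPM in 1 DZNep library and 81.8 CPM in the other, against 4.20 to 5.42 CPM in the controls. With UNC1999, the pigment epithelium markers were at 863 to 1051 against 458 to 663 CPM (6 of 8 higher), and those of microglia were at 90.7 to 118 against 151 to 252 CPM. Their part in the values of the members was not tested.

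None of the members passed with UNC0642, Romidepsin or, in sorted rods, GSK. With UNC0642 the log2 fold changes lay between -0.13 and 0.55 (median 0.16). Guca1b had an unadjusted p below 0.05, as 7.95% of genes did as higher, 5 members had both treated libraries above both controls, against 26.9% of genes, none was called by the likelihood ratio test or DESeq2, and 0% of the 16321 genes passed. Against all 9 controls made within series G-981, in place of only its own 2 controls, which held the least of these transcripts, all 9 values were negative, from -1.09 (Gucy2f) to -0.44, and none passed. With Romidepsin they lay between -0.19 and 1.07 (median 0.38), and 0.573% of 16049 genes passed as higher. Here 3 members (Guca1a, Guca1b and Pdc) had an unadjusted p below 0.05, as 9.92% of genes did as higher, and the likelihood ratio test and DESeq2 each called these 3, where they called 4.09% and 3.72% of genes as higher. In sorted rods they lay between -0.73 and 0.34 (median 0.09), no member had an unadjusted p below 0.05 (2.78% of genes did as higher) or was called by the likelihood ratio test or DESeq2, and 0% of 14478 genes passed.

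**Figure D2:**
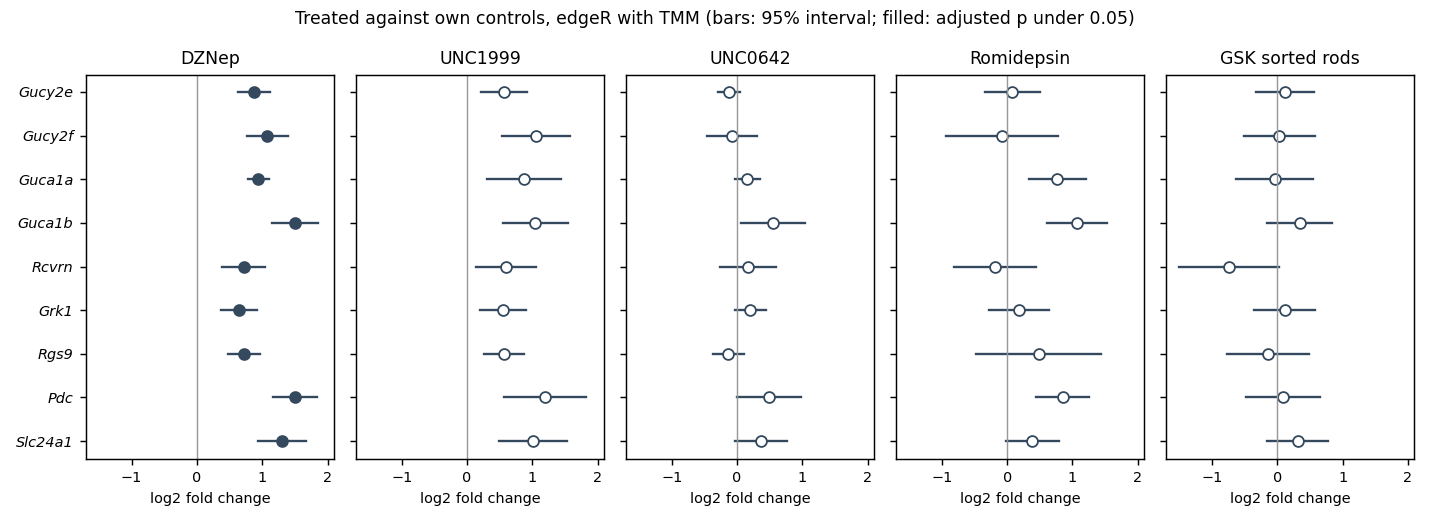
Log2 fold change of each gene in the 5 experiments, treated against own controls (circles, estimates; bars, 95% intervals; filled circles, adjusted p under 0.05). All 9 circles are filled for DZNep only, and for UNC1999 all 9 intervals lie above 0.

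Of the cyclases, which make cyclic GMP, GC2 (Gucy2f) had the larger fold change with both EZH2 inhibitors and GC1 (Gucy2e) the smaller. Gucy2e had 468, 387, 436 and 340 CPM in the DZNep controls and 749 and 742 CPM in the treated retinas. Its 2 treated values were nearly equal and far above the highest control, and it rose by 0.87 on the log2 scale (SE 0.11, adjusted p 0.0013). Gucy2f had 95.8, 74.7, 78.8 and 60.4 CPM in those controls and 165 and 161 CPM after DZNep, a log2 fold change of 1.08 (SE 0.14, adjusted p 0.00135).
With UNC1999, Gucy2f went from 55.9, 46.7 and 91.7 CPM to 144, 142 and 118 CPM, with a log2 fold change of 1.06 (SE 0.23) and an adjusted p of 0.0588. Gucy2e had a log2 fold change of 0.57 (SE 0.15) there. With UNC0642, Gucy2e was the only member with both treated libraries below both controls, at 202 and 212 against 221 and 230 CPM (log2 fold change -0.12, SE 0.07, adjusted p 0.418), where 25.2% of all genes were so placed.
With Romidepsin both cyclases overlapped with their controls. Gucy2f had 85.4, 23.1 and 60.6 CPM in the treated and 69.4, 55.0 and 54.5 CPM in the control retinas, and the value of 23.1 came from treated replicate 2, the library low in long transcripts. Without that library its log2 fold change was 0.29 in place of -0.08. In sorted rods, the log2 fold changes were 0.12 for Gucy2e (SE 0.20) and 0.03 for Gucy2f (SE 0.24), both with intervals that include 0.

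Of the cyclase activators, GCAP2 (Guca1b) had the larger fold change in all 5 experiments. Guca1b had 474, 347, 416 and 291 CPM in the DZNep controls against 1103 and 1061 CPM after treatment. Its log2 fold change of 1.5 (SE 0.16, adjusted p 0.000767) was the largest among the members, with that of Pdc nearly equal. Guca1a had 256, 234, 254 and 218 CPM against 480 and 443 CPM, and rose by 0.94 (SE 0.07) with an adjusted p of 0.000289, the smallest among the members.
With UNC1999, Guca1b had 448, 335 and 606 CPM in the controls and 1139, 794 and 940 CPM in the treated retinas. This gave a log2 fold change of 1.05 (SE 0.22, adjusted p 0.0582). For Guca1a the change was 0.88 (SE 0.25), its treated libraries ran from 322 to 551 CPM, and the lowest of them was just above the highest control, 309 CPM.
With Romidepsin both activators were above their controls in every treated library. Guca1b had 268, 209 and 372 CPM in the controls and 639, 618 and 525 CPM in the treated retinas, a log2 fold change of 1.07 (SE 0.20) with an adjusted p of 0.0561. Guca1a had 208, 148 and 265 CPM against 345, 370 and 344 CPM, a log2 fold change of 0.77 (SE 0.19) with an adjusted p of 0.0855. Pdc was the only other member with all 3 treated libraries above all controls, a placing that 13.5% of all genes shared.
With UNC0642, Guca1b had the smallest p of the members (unadjusted 0.0326, adjusted 0.328). Its log2 fold change of 0.55 (SE 0.20) rested mainly on treated replicate 2, at 288 CPM, since treated replicate 1, at 180 CPM, was close to the controls, 164 and 156 CPM. With the 9 controls of series G-981 it was -0.44. In sorted rods it went from 2087 and 2130 CPM to 2923 and 2420 CPM (log2 fold change 0.34, SE 0.22, adjusted p 0.987).

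With DZNep, the receptor kinase and its calcium-dependent brake recoverin rose least. Grk1 had 1120, 858, 1000 and 794 CPM in the DZNep controls and 1491 and 1441 CPM after treatment. It rose by 0.64 (SE 0.12, adjusted p 0.0074), the smallest change among the 9. Rcvrn had 831, 667, 727 and 526 CPM against 1164 and 1095 CPM and rose by 0.72 (SE 0.14, adjusted p 0.00908). Its call was lost with all 22 retina libraries in 1 fit (adjusted p 0.0974), with the 9 controls of series G-981 (0.0626) and without treated replicate 1 (0.086). That of Grk1 was lost without treated replicate 1 (0.071).
With UNC1999 the log2 fold changes were 0.55 for Grk1 (SE 0.15) and 0.60 for Rcvrn (SE 0.20, adjusted p 0.122). The lowest treated Rcvrn value, 818 CPM, was only slightly above the highest control, 805 CPM.
With Romidepsin, Rcvrn had 646, 494 and 801 CPM in the controls and 731, 629 and 340 CPM in the treated retinas. The groups overlapped, and the low value of treated replicate 3 turned its sign, since without it the log2 fold change was 0.08 in place of -0.19. In sorted rods, Rcvrn had the most negative value of the members, with 893 and 1779 CPM in the controls and 953 and 653 CPM after GSK. This log2 fold change of -0.73 (SE 0.34) had an unadjusted p of 0.058 and an adjusted p of 0.987, and the groups overlapped. Rcvrn is also a cone gene, and all 9 cone markers were lower in both GSK libraries than in both controls there (1544 to 2026 against 2884 to 4279 CPM summed), where 17.3% of genes were so placed. The part of cones in the value of Rcvrn was not tested.

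Rgs9, the GTPase-activating protein of transducin, had 355, 298, 321 and 257 CPM in the DZNep controls and 525 and 491 CPM after treatment. It rose by 0.73 (SE 0.11, adjusted p 0.00235), a call lost with all 22 retina libraries in 1 fit (adjusted p 0.167). With UNC1999 its log2 fold change was 0.56 (SE 0.13, adjusted p 0.0687), and with UNC0642 it was -0.13 (SE 0.10). With Romidepsin the treated libraries had 431, 126 and 486 CPM and the controls 303, 256 and 186 CPM. The 2 lowest values, 126 and 186 CPM, came from the 2 libraries low in long transcripts. With both left out, the log2 fold change was 0.71 (SE 0.13, adjusted p 0.095) in place of 0.48 (SE 0.42), and none of the 9 members passed.

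Phosducin, which binds the beta-gamma subunits of transducin, had 872, 696, 809 and 562 CPM in the DZNep controls and 2215 and 1940 CPM after treatment. It rose by 1.5 on the log2 scale, 2.83-fold (SE 0.15, adjusted p 0.000708). With UNC1999 it had 760, 616 and 1266 CPM in the controls and 2526, 1668 and 1828 CPM in the treated retinas, the largest log2 fold change of the members there (1.19, SE 0.27, adjusted p 0.0632). Romidepsin gave 1138, 1119 and 1090 CPM against 627, 463 and 769 CPM. The 3 treated values were almost the same and all above the controls, with a log2 fold change of 0.85 (SE 0.18) and an adjusted p of 0.0638. With UNC0642, treated replicate 1 had 296 CPM, near the controls at 276 and 277 CPM, and treated replicate 2 had 479 CPM (log2 fold change 0.49, SE 0.20, adjusted p 0.341), and with the 9 controls of series G-981 the value was -0.70. In sorted rods Pdc had 2714 and 3964 CPM in the controls and 3664 and 3457 CPM after GSK (log2 fold change 0.09, SE 0.25), and the treated values lay between those of the controls.

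The exchanger gene Slc24a1 had 736, 557, 660 and 441 CPM in the DZNep controls and 1544 and 1418 CPM after treatment, and rose by 1.31 (SE 0.16, adjusted p 0.00132). With UNC1999 it went from 596, 507 and 943 CPM to 1619, 1295 and 1213 CPM (log2 fold change 1.01, SE 0.23, adjusted p 0.0611). It overlapped with Romidepsin, at 798, 524 and 631 CPM against 503, 423 and 572 CPM, where treated replicate 2 was again the low one (log2 fold change 0.38, SE 0.18, adjusted p 0.281). In sorted rods both treated libraries, 1629 and 1536 CPM, were above both controls, 1235 and 1317 CPM (log2 fold change 0.31, SE 0.20, adjusted p 0.987). Guca1b, Gucy2e and Grk1 were placed likewise in sorted rods, against 15.9% of genes.

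The sizes of these changes were set against each other by a test of the difference between experiments, over 10 pairs of experiments and 18385 genes in 1 fit. The only difference past the threshold was that of Pdc between DZNep in retina and GSK in sorted rods, 1.34 on the log2 scale (SE 0.39, adjusted p 0.0455), with 1.70% of genes past it as higher. With only the libraries of these 2 experiments no member passed, and with the likelihood ratio test Guca1b, Rcvrn and Pdc did, as 3.22% of genes did as higher. Retina and sorted rods differed in tissue and, per the study's methods, in library kit, so that drug, tissue and kit cannot be told apart. Between DZNep and UNC1999, the 9 differences ran from 0.02 (Gucy2f) to 0.46 (Guca1b), and all 9 had intervals that include 0 (0% of genes passed), the widest from -0.87 to 0.92 for Gucy2f and from -0.75 to 1.07 for Rgs9. Between DZNep and UNC0642, 6 of 9 members had an unadjusted p below 0.05, all as higher, as 5.6% of genes did (smallest for Gucy2e, a difference of 1.01 with an adjusted p of 0.259). None passed, with 0.00544% of genes past the threshold as higher. In the fit of only those 2 experiments 5 passed (Guca1a, Gucy2e, Gucy2f, Rgs9 and Pdc), and so did 5.44% of genes as higher.

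The activation cascade runs from light absorption to the channel. With DZNep, 9 of 9 of its genes rose (median log2 fold change 1.08, led in p by Pde6b, Pde6g, Gnb1 and Cnga1), and with UNC1999, all 9 had every treated library above every control (median 1.04) with none past the threshold. The medians were 0.27 with UNC0642, 0.37 with Romidepsin and -0.03 in sorted rods, with none past the threshold, beside medians over all genes tested between -0.01 and 0.00.

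Of 13 other genes of recovery and calcium handling, 6 rose with DZNep, among them the phosphatase Ppef2 (0.86, SE 0.08), the RGS9 partner Gnb5 (0.65, SE 0.07), the RGS9 anchor Rgs9bp (0.89, SE 0.12) and the phosducin relative Pdcl (0.26, SE 0.05), and also rod arrestin Sag and the cyclase partner Rd3. Another 3 fell, where 9.72% of all genes passed as lower. These were cone arrestin Arr3 by 0.84 on the log2 scale (SE 0.10), the pump Atp2b2 and the exchanger Slc24a2. Among those that did not pass, Calm2 and Calm3, which code for calmodulin, and the pump Atp2b1 had values from -0.13 to 0.05. With UNC1999, Ppef2 (0.94), Rgs9bp (0.92), Gnb5 (0.59) and Rd3 (0.32) had every treated library above every control, and with none of the 13 past the threshold the median was 0.13. With Romidepsin, Arr3 was lower in all treated libraries (log2 fold change -1.62, SE 0.50, adjusted p 0.125), as were 6 of the 8 other cone markers. No gene of the list passed with UNC0642 or Romidepsin or in sorted rods.

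Over the 22 retina libraries, each member followed the mean log2 CPM of the other 8, with r from 0.868 (Rgs9) and 0.893 (Rcvrn) to 0.994 (Slc24a1). The 8 genes outside the members most like their mean, of 15327 ranked by Pearson's r, included Nt5e, Ccdc126, Agpat3, Pde6a, Gnb1, Rgs9bp and Reep6 (r from 0.990 to 0.995). These libraries share experiments and treatments, and the values are descriptions.

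To compare the members with rods as a whole, each library was scaled to the geometric mean of 12 rod genes (among them Gnat1, Gngt1, Pde6a, Pde6g, Cnga1, Cngb1, Sag, Nrl, Nr2e3, Rom1 and Prph2) in place of TMM. On this scale most genes of the retina are lower after DZNep, with a median log2 fold change of -1.13 over all genes (-0.95 for UNC1999, -0.21 for UNC0642, -0.39 for Romidepsin and 0.02 in sorted rods), and values below are relative to rod genes. For DZNep the members lay between -0.46 (Grk1) and 0.42 (Guca1b). Grk1 passed as lower (SE 0.22, adjusted p 0.0413), where 91.5% of all genes did. Without control replicate 2 or 3 or either treated library it no longer passed (adjusted p 0.0852, 0.0719, 0.204 and 0.181). In the other 4 experiments none of the members passed (as lower, 81.1% of genes passed with UNC1999, 0.447% with UNC0642, 5.00% with Romidepsin and 0% in sorted rods). Unadjusted, Grk1 in DZNep and Guca1b and Rcvrn in Romidepsin had a p below 0.05, and no member did in the other 3 experiments. In Romidepsin, 1.61% of genes did so as higher and 20.9% as lower. SEs of the members were 0.22 to 0.38.

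The libraries themselves were ordered alike in several experiments. Pdc was the one member with all treated libraries above all controls in all 5 experiments, by 0.41 with DZNep, 0.31 with UNC1999, 0.22 with UNC0642, 0.52 with Romidepsin and 0.16 in sorted rods. Scaled to the summed counts of the rod genes in place of their geometric mean, these values were 0.30, 0.09, 0.11, 0.44 and 0.09. The shares of all genes so placed were 0.255%, 0.488%, 3.82%, 0.941% and 12.3% in the same order. These shares cover all genes and not rod genes alone. Rod genes themselves lay on both sides of 0 on this scale, from -0.65 (Sag) to 0.32 (Nrl) with DZNep. With UNC1999, for example, Gnat1 was at 0.34 and Cngb1 at -0.21. Guca1b was above all controls in 4 experiments (0.42 with DZNep, 0.29 with UNC0642, 0.73 with Romidepsin and 0.36 in sorted rods) and overlapped with UNC1999 (0.15).
Slc24a1 was also above in 4 (0.22, 0.13, 0.12 and 0.34, in DZNep, UNC1999, UNC0642 and sorted rods) and overlapped with Romidepsin (0.01). Rcvrn was the opposite of Pdc, with all treated libraries below all controls in 5 of 5 experiments, by -0.38 with DZNep, -0.29 with UNC1999, -0.09 with UNC0642, -0.57 with Romidepsin and -0.63 in sorted rods. That placing was common, with 92.9%, 81.5%, 31.7%, 20.9% and 12.8% of all genes.
Gucy2e and Rgs9 were below in DZNep, UNC1999 and UNC0642, and Grk1 in DZNep and UNC1999. Guca1a was above in Romidepsin (0.45) and overlapped elsewhere, and Gucy2f overlapped in all 5. Of these placings, only that of Grk1 with DZNep went with an adjusted p under 0.05. Members on both sides differed in length. Pdc and Guca1b are short, Slc24a1 is long, Rcvrn is short, and Gucy2e, Grk1 and Rgs9 are long. The median log2 fold changes of short and of long genes under TMM, over all genes tested, were 0.01 and 0.00 with DZNep, -0.01 and 0.01 with UNC1999, 0.12 and -0.09 with UNC0642, 0.06 and -0.08 with Romidepsin and -0.13 and 0.06 in sorted rods. Among the members, the medians relative to rod genes of the 4 short and the 5 long ones were 0.12 and -0.23 with DZNep, 0.06 and -0.34 with UNC1999, 0.08 and -0.29 with UNC0642, 0.48 and -0.23 with Romidepsin and 0.11 and 0.13 in sorted rods. The part of length in these values was not tested.

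**Figure D3:**
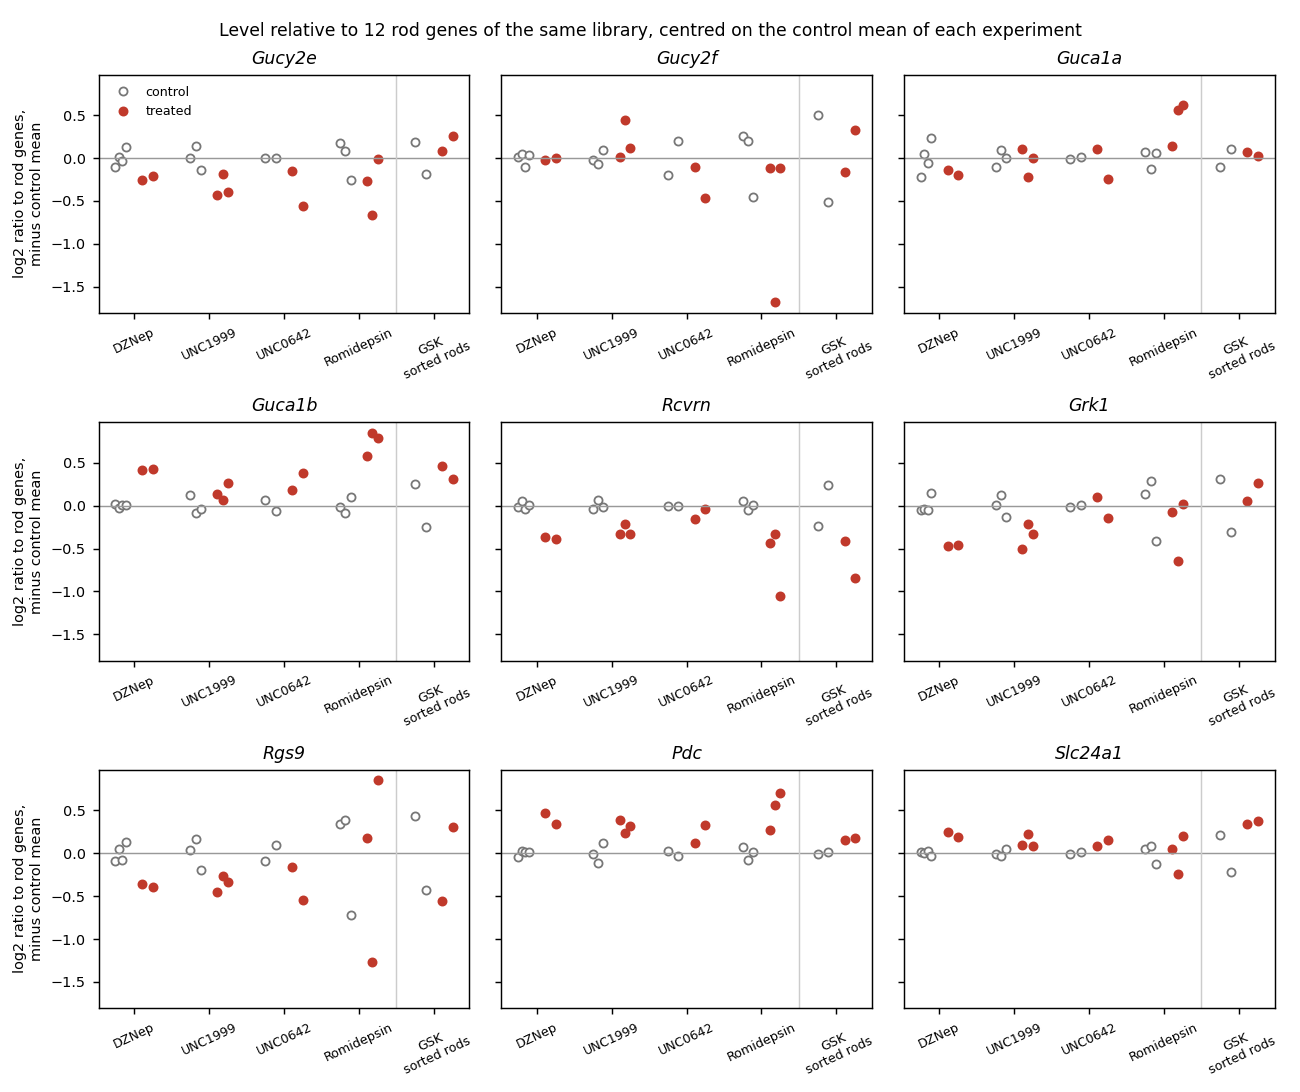
Log2 ratio of each gene to the geometric mean of 12 rod genes in the same library, with the control mean of the experiment subtracted (open grey circles, controls; filled red circles, treated). All treated Pdc circles are above and all treated Rcvrn circles below the controls of their experiment.

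Ratios between partner genes within a library do not depend on the scaling. The log2 ratio of Guca1a to Guca1b was -0.89, -0.56, -0.71 and -0.42 in the DZNep controls and -1.20 and -1.26 in the treated retinas. Both treated values were below all controls (difference -0.58, exact permutation p 0.133). This is the smallest p that this design allows where the two-sided p is 2 times the smaller tail, as here. It was also lower in all 3 Romidepsin libraries (-0.89, -0.74 and -0.61) than in their controls (-0.37, -0.50 and -0.49), with a difference of -0.29 (exact permutation p 0.1, the smallest possible with 3 against 3).
The log2 ratio of Gucy2e to Gucy2f was 2.49, 2.69 and 2.24 in the UNC1999 controls and 2.03, 1.84 and 1.96 in the treated retinas (difference -0.53, exact permutation p 0.1). With DZNep it was 2.29 to 2.49 in the controls and 2.18 and 2.2 in the treated retinas (difference -0.21, exact permutation p 0.133). In both, every treated value was below every control. The ratio of Grk1 to Rcvrn overlapped between treated and control libraries in all 5 experiments. Of the 15 two-sided tests, none passed after Benjamini-Hochberg adjustment (smallest adjusted p 0.5). With this two-sided rule, no design here could give a p below 0.1.
In sorted rods the linear ratio of Gucy2e to Gucy2f was 1.40 to 2.2, against 3.58 to 11.4 in the 22 retina libraries, and that of Guca1a to Guca1b was 0.152 to 0.252 against 0.406 to 0.796. The ranges did not overlap for either pair. GC1 and GCAP1 are known from rods and cones, and GC2 mainly from rods, but library kit and cell sorting cannot be told apart here.

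**Figure D4:**
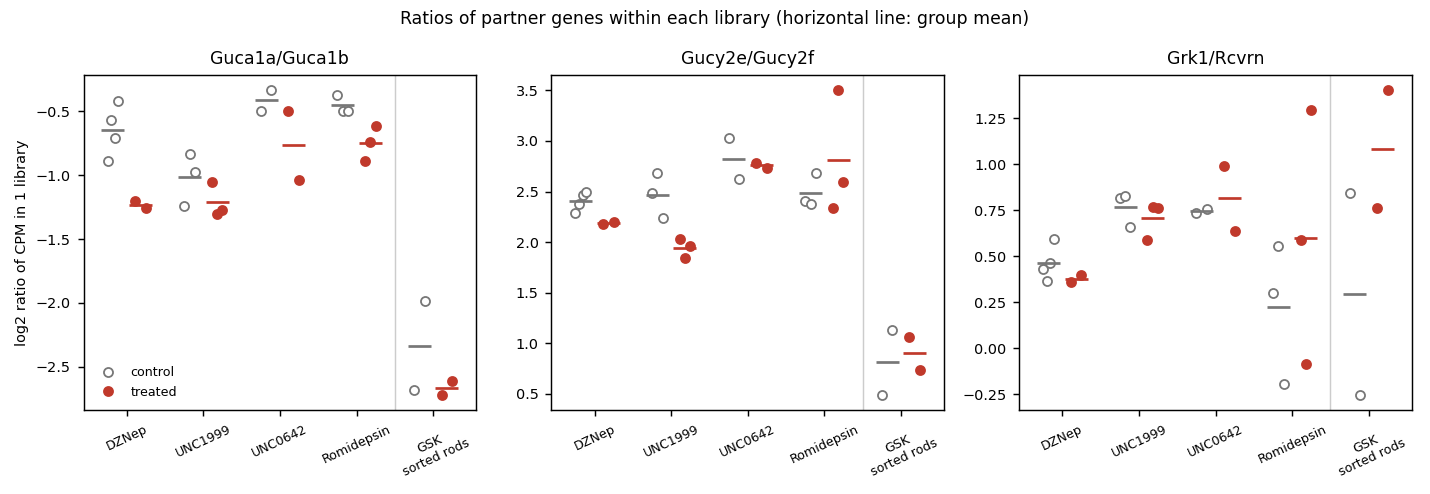
Log2 ratio of 3 pairs of partner genes in each library (open grey circles, controls; filled red circles, treated; lines, group means). Guca1a/Guca1b is lower in all treated than in all control libraries of DZNep and Romidepsin, Gucy2e/Gucy2f in those of DZNep and UNC1999, and both ratios are lowest in sorted rods.

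Without treatment, the estimated slopes of the members on rod genes ran from 0.65 (Gucy2e) to 1.20 (Pdc and Slc24a1). Among the 12 control retinas the UNC0642 pair stood apart at the low end of the mean log2 CPM of the 12 rod genes, at 8.64 and 8.69 against 9.40 or more in the other 10, and these were also the 2 libraries farthest from the median. Over the other 10, Pearson's r with this mean was 0.963 for Pdc (permutation p 4e-05), and the lowest values were 0.769 for Gucy2f (permutation p 0.0119) and 0.515 for Rgs9 (permutation p 0.119). With the pair included, r ran from 0.811 (Rgs9) to 0.989 (Pdc and Slc24a1) and Spearman's rank correlation from 0.790 (Gucy2f) to 0.972. All 9 relations then passed a permutation test (100000 resamples, adjusted p at most 0.00278 for r and 0.00362 for the rank correlation). The permutations of this paragraph exchanged libraries freely between experiments, so their p values treat libraries of the same experiment as independent. Romidepsin control replicate 3, low in long transcripts, is among the other 10, with 7.53 for Rgs9 at a rod gene mean of 10.04. Its part in the lower r of Rgs9 was not tested. Within the 9 controls of 1 library series (G-981), which hold the pair, r was 0.776 (Rgs9, exact permutation p 0.0262) to 0.997 (Pdc).
The slope over all 12 was 1.20 for Pdc and Slc24a1 and 1.11 for Guca1b, against 0.65 for Gucy2e, 0.66 for Rgs9 and 0.70 for Grk1, with 0.82 for Guca1a, 0.89 for Rcvrn and 0.91 for Gucy2f between. Without the UNC0642 pair, the slopes of Pdc, Slc24a1 and Guca1b were 1.20, 1.06 and 1.29, and those of Gucy2e, Rgs9 and Grk1 were 0.65, 0.53 and 0.71. Differences between slopes were not tested, nor was the part of Romidepsin control replicate 3, low in long transcripts, in the slopes of long genes.

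**Figure D5:**
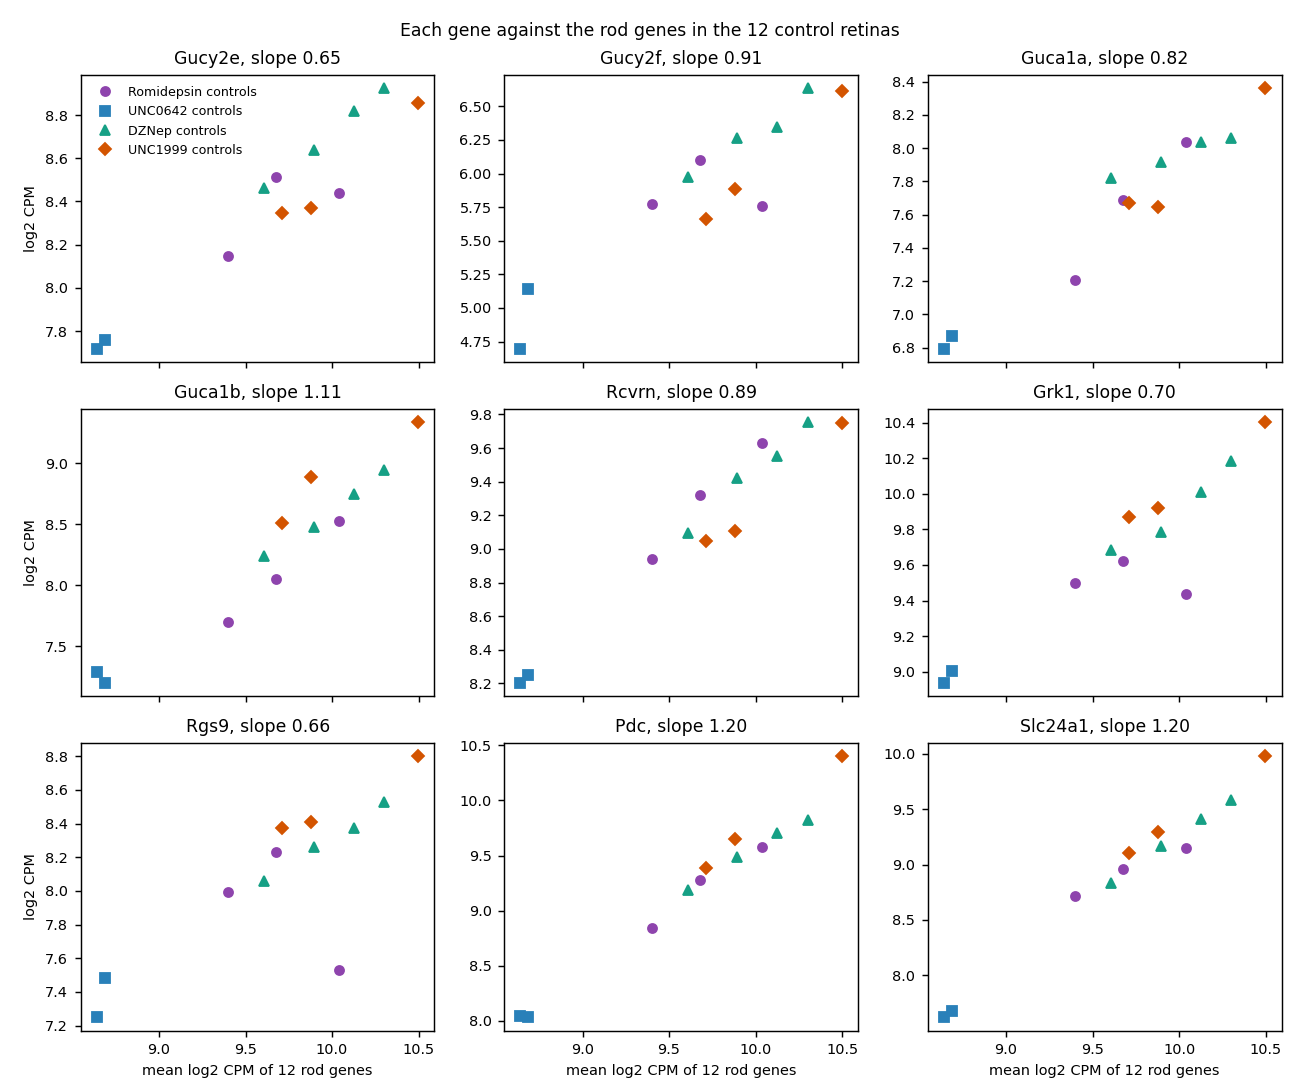
Log2 CPM of each gene against the mean log2 CPM of 12 rod genes in the 12 control retinas (symbols, experiments of the controls). Pdc and Slc24a1 rise most steeply, Gucy2e, Rgs9 and Grk1 least, the UNC0642 pair lies at the lower left, and Romidepsin control replicate 3 lies under the others in the Rgs9 and Grk1 panels.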

How the data were processed

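RNA-seq libraries of 22 rd10 retinas and 4 samples of sorted rods were used. According to the authors, reads were aligned to NCBIM37 (Ensembl 67) with HISAT2 2.2.1 and counted per gene with HTSeq 0.11.2. The deposited values are raw counts without normalization. The labels give 1 stranded kit for all libraries, the methods a low-input kit for sorted rods. Titles name biological replicates, and samples sharing a number were not otherwise tied. Their genotype and UNC1999 names rise by 1 per library in places, so titles gave the groups. The lowest chi-square per gene between 23 pairs of replicates was 3.89, above sampling noise.

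Gene symbols matched 37205 of 37991 identifiers. Low counts were filtered with filterByExpr, and each experiment was fitted alone in edgeR 4.0.16 (R 4.3.3) with TMM and the quasi-likelihood test, Benjamini-Hochberg over all genes, and adjusted p under 0.05 as the threshold. The study's own threshold, an absolute log2 fold change above 1 as well, was an alternative. Others were DESeq2 1.42.0, a likelihood ratio test, RLE scaling, filters, a block for replicate, pooled controls and leaving out each library. Intervals are 95%. Ratios added 0.5 to each count. Exons were merged per gene from GENCODE M1, and sequences came from RefSeq.

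The 9 members, the gene lists and the tests were chosen with earlier results of these data known. The split by exon length and the fit without both libraries low in long transcripts were added after their values were seen. Of the other fixed lists, genes with the smallest p were named, up to 4 per comparison, except where small groups are named in full after their values were seen. Tests were tested on simulated data. Values of some genes, and 1 alternative set of rod genes, are not reported here.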

Additional observations from a re-analysis of the deposited data

Results flagged for a closer look

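In the DZNep controls, Grk1 relative to rod genes was -0.12, -0.11 and -0.11 on the log2 scale in replicates 1 to 3 and 0.08 in replicate 4, and the gap of replicate 4 took 0.958 of the range of the 4 values, above Dixon's limit for 4 samples. Of 21 such groups of values examined, 1 exceeded the limit, where chance gives about 1 in 20. Without control replicate 4 the value of Grk1 relative to rod genes passed as with all 4 controls, and 3 more members passed (Guca1b and Pdc as higher, as 0.355% of genes did, and Rcvrn as lower, as 90.9% did). Without control replicate 1, Guca1b and Pdc passed as higher, as 0.294% of genes did, and Grk1 as lower, as 93.5% did. Without control replicate 2 or 3 no member passed.

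The change of Pdc differed between DZNep in retina (1.5) and GSK in sorted rods (0.09), by 1.34 in the fit of all libraries (95% interval 0.53 to 2.15, adjusted p 0.0455). It was higher than all controls in 2 of 2 DZNep libraries, and both GSK libraries lay between their controls. It did not pass with only these 2 experiments in the fit. Drug, tissue and library kit cannot be told apart.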

How the results depend on the processing

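The 9 calls with DZNep were also 9 with the likelihood ratio test, DESeq2, RLE, no filter, a minimum of 10 counts and the replicate block, and 7 to 9 with 1 library left out (7 without treated replicate 1, Rcvrn and Grk1 lost). With all 22 retina libraries in 1 fit they were 7 (Rcvrn and Rgs9 lost), and with the controls of series G-981 they were 8 (Rcvrn lost). Of the 9, 4 also exceeded an absolute log2 fold change of 1, as 1.02% of genes did as higher. All genes called as higher were 12.0% with the likelihood ratio test, 12.3% with DESeq2 and 12.7% with RLE. They were 8.94% with no filter, 13.9% with a minimum of 10 counts and 4.20% with the replicate block. With 22 libraries they were 5.57%, and with the controls of series G-981 9.84%. Where counts moved, the cause was not tested. With UNC1999, 9 members were called by the likelihood ratio test, 8 by DESeq2, 8 without a filter, 6 with all 22 retina libraries in 1 fit, and 0 to 9 with 1 library left out (9 without control replicate 3). All genes called as higher went from 0.501% to 5.32%, 5.08%, 2.35%, 4.15% and 8.31% in the same order. With UNC0642, 3 were called without a filter, as 1.92% of genes were as higher (0% with the filter). With Romidepsin, 3 were called by the likelihood ratio test, by DESeq2, without a filter and with 22 libraries, 2 with the 9 controls of series G-981, 1 with at least 10 counts in every library, and 0 to 1 with 1 library left out (Guca1b without treated replicate 2). All genes called as higher were 4.09%, 3.72%, 1.75%, 8.92%, 6.65%, 0.779% and 1.31% in the same order. Without both libraries low in long transcripts, a choice made after seeing the data, none was called and Gucy2f was at 0.23. Relative to rod genes, leaving out 1 library gave 0 to 4 calls with DZNep. Without control replicate 1, 2 were higher and 1 lower, against 0.294% and 93.5% of genes. Without control replicate 4, 2 were higher and 2 lower, against 0.355% and 90.9%. UNC1999 gave 0 to 2 (2 as lower without control replicate 3, as 90.8% of genes were). Romidepsin gave 0 to 1 (1 as higher without control replicate 3, as 0.541% were). Summed rod counts gave 1 as lower with UNC1999, as 89.4% of genes were. With UNC0642, leaving out a library leaves 1 in a group, and calls are not counted here. Leaving out a treated DZNep library also leaves 1 in its group, so the calls given for those fits rest on 1 treated library. For differences of effects, fits of the 2 experiments alone gave 5 calls for DZNep against UNC0642, with 5.44% of genes called as higher. They gave 0 for DZNep against GSK, where the likelihood ratio test gave 3, with 3.22% of genes as higher. Without the UNC0642 controls, r of Rgs9 with rod genes was 0.515.

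Some signs turned. With the controls of series G-981 in place of its own, UNC0642 gave -0.68 for Guca1a, -0.44 for Guca1b, -0.83 for Rcvrn, -0.44 for Grk1, -0.70 for Pdc and -0.89 for Slc24a1. Against summed rod counts, UNC1999 gave -0.071 for Guca1b, -0.020 for Gucy2f and -0.088 for Slc24a1, Romidepsin -0.042 for Rgs9 and -0.075 for Slc24a1, and GSK -0.025 for Guca1a and -0.078 for Gucy2f. With 1 library left out, values under TMM spanned, with UNC0642, -0.29 to 0.17 for Gucy2f and -0.17 to 0.42 for Rcvrn. With Romidepsin they spanned -0.51 to 0.29 for Gucy2f, -0.086 to 0.26 for Gucy2e, -0.054 to 0.38 for Grk1 and -0.42 to 0.077 for Rcvrn. In sorted rods they spanned -0.56 to 0.20 for Rgs9, -0.16 to 0.39 for Pdc, -0.36 to 0.37 for Guca1a and -0.20 to 0.29 for Gucy2f. Relative to rod genes, they spanned -0.11 to 0.051 for Guca1a with UNC1999, -0.24 to 0.10 for Guca1a and -0.15 to 0.094 for Grk1 with UNC0642, and -0.45 to 0.47 for Rgs9 and -0.092 to 0.12 for Slc24a1 with Romidepsin. In sorted rods they spanned -0.051 to 0.15 for Guca1a, -0.63 to 0.37 for Rgs9, -0.012 to 0.35 for Gucy2e, -0.40 to 0.61 for Gucy2f and -0.15 to 0.47 for Grk1. Differences in log2 ratio spanned -0.68 to 0.015 for Guca1a over Guca1b in sorted rods, -0.26 to 0.14 with UNC0642, -0.020 to 0.57 with Romidepsin and -0.24 to 0.41 in sorted rods for Gucy2e over Gucy2f, and -0.11 to 0.25 for Grk1 over Rcvrn with UNC0642. A group left with 1 library was assumed to vary like the others.

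Replicate numbers were shared across groups, but same-numbered libraries deviated together in some pairs and oppositely in others (r from -0.395 to 0.289). With 2 libraries in each group these r are equal or opposite by construction (0.229 for both same-numbered UNC0642 pairs). Whether numbers mark pairs cannot be told from such values. With the replicate block, 9 members were called with DZNep, 1 with UNC0642 (Guca1b) and 0 in the other 3 experiments. Guca1a in sorted rods was at 0.0025. With UNC0642 the block also called genes outside the members, as higher and as lower, whereas the main fit called none. The share called as higher was smaller than without a filter. DZNep control replicates 3 and 4 have no treated library of the same number, so they could not inform the treatment effect under the block. Pairing the sorted-rod numbers crosswise, added after seeing the data, called 0 (Guca1a 0.0016). Every member had at least 419 counts in each library, and the parts of depth and of group size in the precision were not tested.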
